A study of Mus musculus with 24 samples.

Results

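The effect of hyperoxia was examined in the lungs of newborn mice reared on a selenium-deficient (SeD) diet, at postnatal day 3 (PN3). Of the 24 lung libraries of the series, the 6 whose titles name the SeD diet and PN3 were compared, 3 from pups exposed to 85% O2 (an FiO2 of 0.85) and 3 from pups in room air (RA, an FiO2 of 0.21). All 6 lungs came from C3H/HeN pups, bred from parents fed a diet with less than 0.01 ppm sodium selenite from 3 weeks of age, so that the deficiency was shared by both groups. The other 18 libraries came from SeD pups at PN1 and from pups of a selenium-sufficient (SeS, 0.4 ppm) diet at both ages, and 2 of those comparisons are set beside the SeD response at PN3. Each library was made from poly(A) RNA of perfused lung.

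Selenium is built as selenocysteine into glutathione peroxidases and thioredoxin reductases, the enzymes that remove peroxides and keep thioredoxin reduced. Oxygen at high concentration raises the formation of reactive oxygen species, which releases the transcription factor NRF2 to switch on antioxidant genes and, through DNA damage, stabilises p53. The days after birth are also when the mouse lung moves from the saccular to the alveolar stage, as myofibroblasts deposit elastin, capillaries grow under VEGF, and Notch and Wnt signals pattern the septa.

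The libraries held 31026031 to 32497304 counts in O2 and 32887585 to 37985314 in RA. Of 57010 genes, 23831 were tested, and the 12636 of them with a mean of at least 5 CPM (a gene's counts relative to the TMM-scaled library size) over the 6 libraries are described. All 6 libraries held the defining transcripts of lung. Sftpc, the surfactant protein of alveolar type 2 cells, lay at 8752 to 11396 CPM in RA and 7122 to 17908 CPM in O2, and Pecam1, an endothelial adhesion protein, at 621 to 659.5 CPM in RA and 315 to 613 CPM in O2.

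O2 replicate 1 stood apart. It held 40173 CPM of Alb (albumin), against 118 and 22.5 CPM in O2 replicates 2 and 3 and 3.42 to 187 CPM in RA, and the 31 liver markers summed to 138762 CPM in it and to at most 808 CPM in the other 5 libraries. Sftpc, at 7122 CPM, and Ager, the receptor that marks alveolar type 1 cells, at 865 CPM, were lower in that library than in the 2 others of its group. Every one of the 31 liver markers passed the test with all 6 libraries (median log2 fold change 6.92), and 0 passed without O2 replicate 1 (median −0.11). Calls are therefore given with all 6 libraries and again without that one.

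Further transcripts moved with single libraries or with the group. RA replicate 3 held 81.4 CPM of the atrial hormone Nppa against at most 2.18 CPM elsewhere, and the summed heart muscle markers were 453 to 1080 CPM in RA and 218 to 387 CPM in O2. The summed erythroid markers ran from 4498 to 11939 CPM in RA and from 7985 to 13169 CPM in O2. Olfactory and vomeronasal receptor transcripts summed to 22.2 to 34.3 CPM in RA and to 241 to 504 CPM in O2, and 26521 to 28170 genes had a count in RA against 33881 to 35266 in O2. Ddx3y, a Y-linked gene, was at 0 in all 3 O2 libraries and in RA replicate 1, and at 142 and 135 CPM in RA replicates 2 and 3, so that sex and O2 cannot be fully told apart. In bulk lung, fewer cells of a type and less RNA per cell cannot be told apart either.

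**Figure D1:**
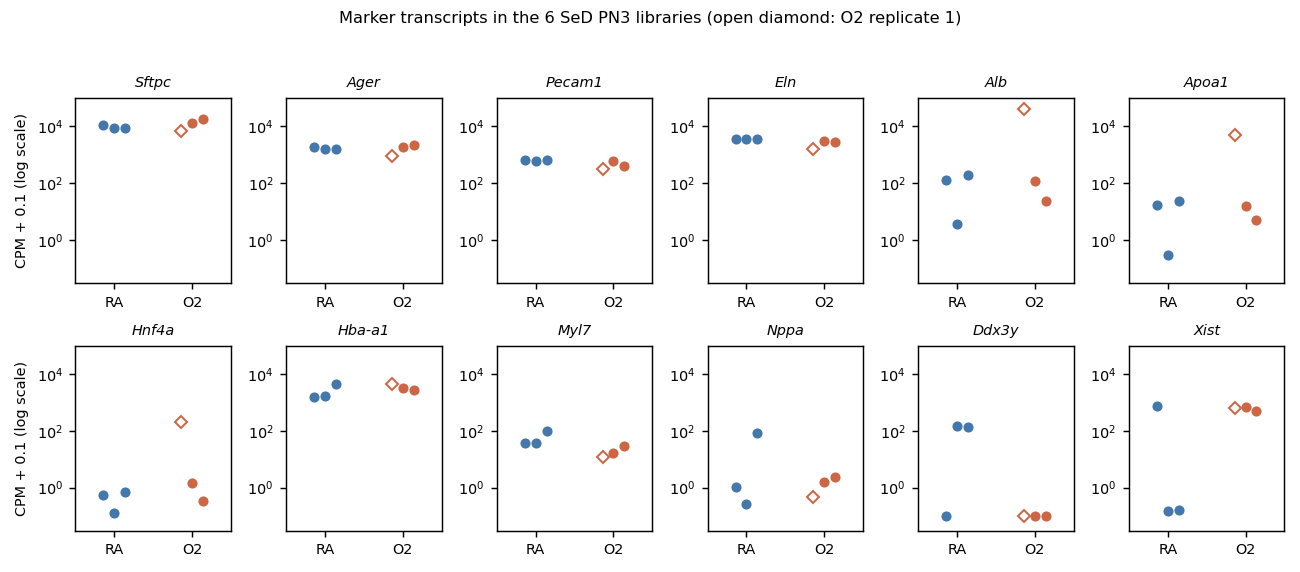
Marker transcripts in each of the 6 SeD PN3 libraries, in CPM plus 0.1 on a log axis, with RA on the left and O2 on the right of each panel and each point 1 library. The open diamond is O2 replicate 1, which lies far above the other 5 libraries for Alb, Apoa1 and Hnf4a and below its group for the lung markers Sftpc, Ager, Pecam1 and Eln.

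A large part of the SeD lung transcriptome at PN3 differed between the O2 and the RA libraries. Of all 23831 genes tested, 8600 (36.1%) were differentially expressed, taking edgeR's quasi-likelihood test with an adjusted p under 0.05 and a log2 change of more than 0.25 either way. Among the 12636 genes with a mean of at least 5 CPM, 1215 (9.62%) rose and 2559 (20.3%) fell. Without O2 replicate 1 the numbers were 811 (6.42%) higher and 1667 (13.2%) lower, and 463 genes (3.66%) passed as higher and 1487 (11.8%) as lower in both fits. These 1950 genes are called in both fits in what follows. The minimum of 5 CPM itself drew on O2 replicate 1. Taken over the other 5 libraries, it kept 12326 genes, of which 890 (7.22%) rose and 2570 (20.9%) fell with all 6. Of those 12326, 451 (3.66%) rose and 1491 (12.1%) fell in both fits.

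The balance of the 2 directions depended on the scaling. With RLE size factors 1686 genes rose and 2062 fell (45% higher against 32.2% with TMM), and DESeq2 gave 1764 and 2170 (44.8% higher). Fitted on the 6 libraries alone, which leaves 4 residual degrees of freedom, 169 genes rose and 758 fell. The labels do not say whether the 3 samples of a group came from separate litters. The p-values measure only the spread between samples, which the main fit estimates over all 24 libraries and not from these 6 alone.

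The largest increases rested on O2 replicate 1. With all 6 libraries 586 genes (4.64%) were called with a log2 fold change above 1, and 77 (0.609%) were so in both fits. Among the 12326 genes that reach 5 CPM without O2 replicate 1, these numbers were 273 (2.21%) and 74 (0.6%). Below −1 there were 115 (0.91%), and 66 (0.522%) in both fits. The O2 libraries all lay above the RA libraries for 1133 described genes (8.97%) and all below for 3443 (27.2%). O2 replicate 1 was the highest of the 6 libraries for 968 of the 1215 genes that rose (79.7%) and the lowest for 1898 of the 2559 that fell (74.2%). In genes with a mean under 5 CPM, 4461 of 11195 (39.8%) rose and 365 (3.26%) fell.

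**Figure D2:**
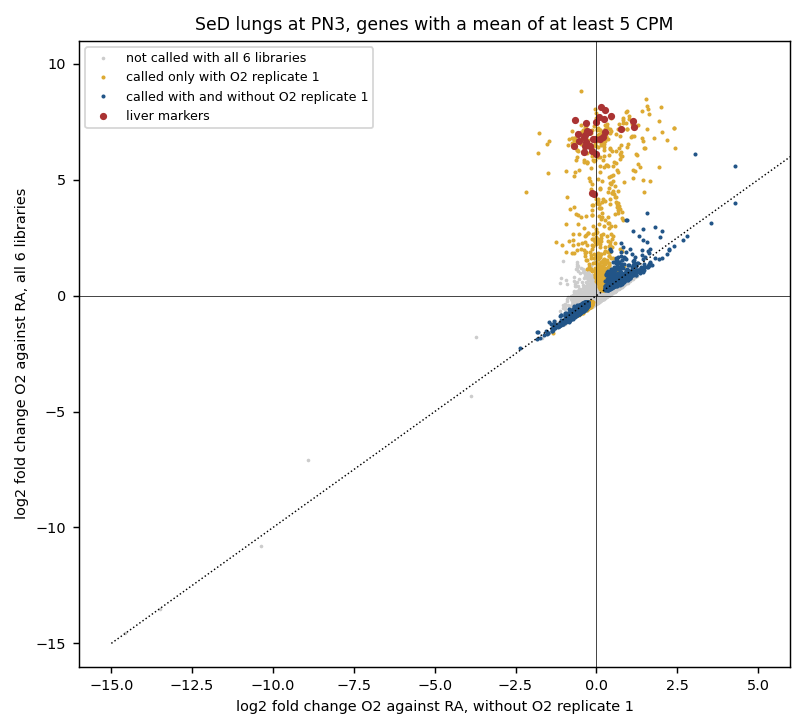
Log2 fold change of O2 against RA in SeD lungs at PN3 with all 6 libraries (vertical axis) and without O2 replicate 1 (horizontal axis), 1 point per gene with a mean of at least 5 CPM, with the dotted line marking equal values. The 31 liver markers (dark red) and most genes called only with O2 replicate 1 (yellow) lie near 0 on the horizontal axis, while the 1950 genes called in both fits (blue) lie closer to the line.

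The 12 genes that rose most among those called in both fits, with no overlap of libraries, were Serpina3n, Prg2, Eda2r, Apol7a, Kynu, Rnf128, Retnla, C3, C4b, Ces2e, Mt2 and Prg4. The minimum level and the ranking both used all 6 libraries, so a gene could enter this set through its value in O2 replicate 1. Eda2r, a p53-induced receptor of the TNF family (chrX:96320270-96420847, GRCm39), was measured at 1.85, 2.96 and 2.62 CPM in RA and at 22.7, 70.4 and 25.1 CPM in O2, which edgeR estimated as 3.99 on the log2 scale (SE 0.429, adjusted p = 5.26e-05). All 3 O2 libraries were well above all 3 RA libraries, and the value without O2 replicate 1 was 4.30. Retnla, a secreted product of alternatively activated macrophages and airway epithelium, rose from 11.1 ± 2.71 to 98.4 ± 59.6 CPM (SD, n = 3), and O2 replicate 1 was here the lowest of its group at 41.6 CPM.

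Other genes of that set were dominated by O2 replicate 1. Serpina3n, a serine protease inhibitor made in liver and in injured tissue, lay at 3.93, 0.995 and 2.59 CPM in RA and at 477, 21.3 and 19.5 CPM in O2, and its log2 fold change of 6.11 (SE 1.14) became 3.06 without O2 replicate 1. The remaining O2 libraries still lay above all RA libraries. Prg2, the major basic protein of eosinophil granules, was at 0.598, 0.323 and 0.77 CPM in RA and 60.0, 9.40 and 12.3 CPM in O2 (log2 fold change 5.59, and 4.29 without O2 replicate 1). C3, the central component of complement, was at 701, 553 and 409 CPM in RA and 9113, 1106 and 2732 CPM in O2 (2.96, and 1.81 without it). Apol7a, Kynu, Rnf128, C4b, Ces2e and Mt2 likewise had their highest value in O2 replicate 1, and Prg4 had it in O2 replicate 3. Across the alternative settings, the log2 fold change of Kynu (3.27) was as low as 0.96 and that of Mt2 (2.78) as low as 1.13. The lowest values were 1.39 for C4b (2.89), 1.57 for Apol7a (3.57) and 2.02 for Ces2e (2.80). Serpina3n, Apol7a, C4b and Ces2e have close paralogs that could share reads, so their values are uncertain in that respect.

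The genes that fell most, of which 11 are described, were more even across libraries. Ntrk2, the receptor of brain-derived neurotrophic factor (chr13:58954176-59281784), lay at 26.4, 25.5 and 22.2 CPM in RA and at 6.21, 4.14 and 5.26 CPM in O2, or −2.25 on the log2 scale (SE 0.290, adjusted p = 0.000118). The groups were far apart and O2 replicate 1 was the highest of its group. Gja4, the connexin 37 of arterial endothelium, fell from 72.8 ± 10.3 to 20.6 ± 2.2 CPM (−1.82), Aplnr, the apelin receptor of capillary endothelium, from 129.96 ± 30.5 to 42.1 ± 6.66 CPM (−1.63), and Ace, the angiotensin-converting enzyme carried by lung capillaries, from 396 ± 41.7 to 137 ± 24.3 CPM (−1.53). For these 3 genes the change was −1.74, −1.49 and −1.37 without O2 replicate 1.

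Trim67, Scube1, Prokr2, Galnt16, Cyp26b1, Tenm4 and Tspan18 were also in the set, with log2 fold changes from −1.86 (Trim67) to −1.57 (Tspan18). Tspan18, a tetraspanin of endothelial cells, was at 85.3, 114 and 107 CPM in RA and 33.8, 36.7 and 32.9 CPM in O2. Cyp26b1, which degrades retinoic acid, was at 11.2, 13.6 and 8.65 CPM in RA and 4.99, 2.58 and 3.57 CPM in O2. Scube1, Galnt16, Trim67 and Tenm4 were each lowest among the RA libraries in replicate 1, the RA library without Ddx3y. A term for sex kept all 23 genes called.

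DESeq2 kept 22 of the 23 (Rnf128 was lost), and the fit of the 6 libraries alone kept 15, losing Apol7a, C3, C4b, Kynu, Mt2, Prg4, Prokr2 and Rnf128. The called genes with the highest log2 fold changes of all, between 8.08 and 8.82, were Gm8893, Cyp2d10, A1cf, Fgl1, Fga and Lect2. Each was at 36.4 CPM or more in O2 replicate 1 and at most 9.36 CPM in the other 5 libraries, and none was called without that library.

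**Figure D3:**
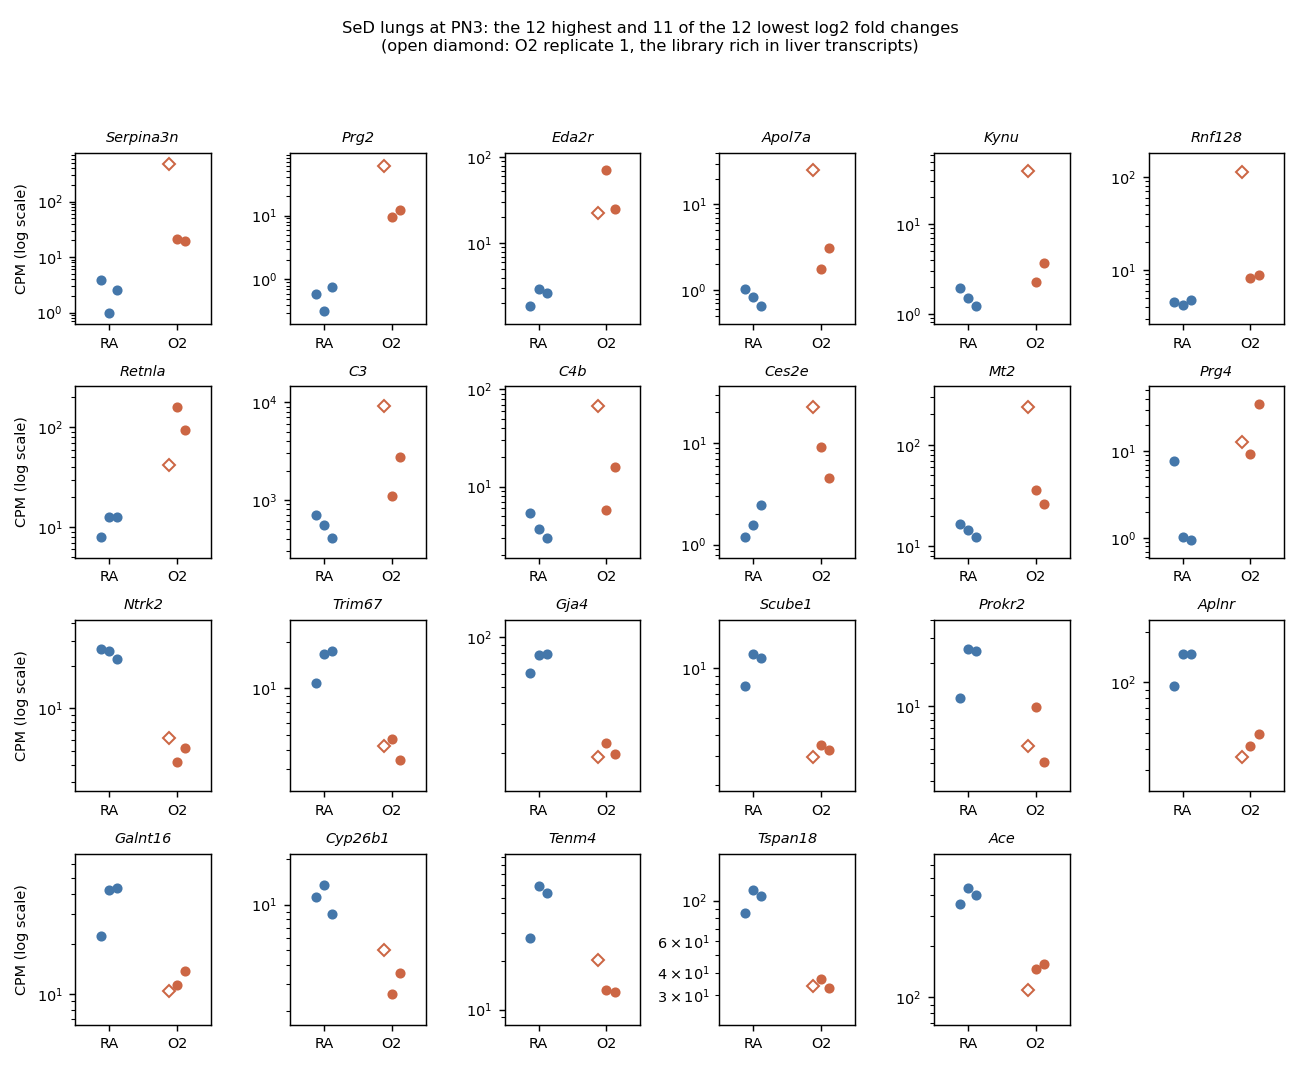
CPM on a log axis of the 12 genes with the highest and 11 of the 12 with the lowest log2 fold change among those called in both fits, with RA on the left, O2 on the right and each point 1 library of SeD lungs at PN3. In the upper rows the open diamond, O2 replicate 1, is the highest library of most panels (Eda2r, Retnla and Prg4 are exceptions), while in the lower rows it lies among the other O2 libraries, all of them below the RA libraries.

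The count of each gene list stands beside the shares of all described genes, 9.62% higher and 20.3% lower (3.66% and 11.8% in both fits). With the 5 CPM minimum taken without O2 replicate 1, the first 2 shares were 7.22% and 20.9%. Antioxidant genes rose together. Of 31 NRF2 targets, 22 rose and 0 fell, 19 of them in both fits, and the median log2 fold change was 0.64 against −0.09 over all described genes (0.45 without O2 replicate 1). Their summed level was 4014, 3916 and 4075 CPM in RA and 7211, 5615 and 6732 CPM in O2, with no overlap. Ftl1, the ferritin light chain that stores iron, rose from 904 ± 79.5 to 1700 ± 243 CPM (0.91). Slc7a11, the cystine importer that feeds glutathione synthesis, rose from 2.48, 1.96 and 2.12 CPM to 7.36, 12.1 and 15.5 CPM (2.41), and Ephx1, an epoxide hydrolase, from 39.8, 29.4 and 32.4 CPM to 165, 121 and 56.6 CPM (1.75). Every O2 library exceeded every RA library for these 3 genes, and in the fit of the 6 libraries alone 14 of the 31 were called.

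Hmox1, which degrades haem, lay at 33.2, 31.9 and 30.2 CPM in RA and 89.1, 147 and 149.7 CPM in O2 (log2 fold change 2.02, SE 0.399, adjusted p = 0.00156). Nqo1, the quinone reductase, was at 9.77, 9.12 and 10.3 CPM in RA and 19.6, 21.9 and 14.1 CPM in O2 (0.93). Gclc, the catalytic subunit of the rate-limiting enzyme of glutathione synthesis, was at 58.4, 59.7 and 61.4 CPM in RA and 151, 120.4 and 103 CPM in O2 (1.06, SE 0.135, adjusted p = 0.000105). The 3 RA libraries were close to equal and all 3 O2 libraries lay above them. The modifier subunit Gclm was at 155 CPM in O2 replicate 1, at 53.7 and 56.3 CPM in the other O2 libraries and at 46.9 to 55.2 CPM in RA, and was not called without O2 replicate 1.

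Of 19 genes of glutathione metabolism, 14 rose and 0 fell, 9 of them in both fits. Gss, glutathione synthetase, Gsr, glutathione reductase, and Gsta3, a glutathione transferase, rose by 0.92, 0.51 and 2.09 on the log2 scale, and by 0.58, 0.44 and 0.81 without O2 replicate 1. O2 replicate 1 was the highest library for 13 of the 14. The count was 8 without RA replicate 2, 9 without RA replicate 3, 9 with a sex term and 4 in the fit of the 6 libraries alone.

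Of 19 thioredoxin, peroxiredoxin and superoxide dismutase genes, 10 rose and 0 fell, 7 in both fits. Srxn1, which repairs overoxidised peroxiredoxins, rose from 20.1 ± 2.28 to 36.8 ± 4.71 CPM (0.87), Prdx1, a cytosolic peroxiredoxin, from 335 ± 12.4 to 606 ± 149 CPM (0.86), and Sod2, the mitochondrial superoxide dismutase, by 0.44. The count was 6 without RA replicate 2 and 4 in the fit of the 6 libraries alone.

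NRF2 binds antioxidant response elements, with the core TGACNNNGC (N being any base). The RefSeq promoter windows of mouse build GRCm38.p6, from 250 bases before to 50 after the start of a gene, were searched on both strands. A core was present in 10 of the 26 NRF2 targets with a window (38.5%), in 14% of all 27025 windows and in 16.9% of the windows of described genes. It was present in 7 of 18 targets that rose (38.9%) and 3 of 8 that were not called (37.5%). The windows of 3 targets called in both fits are printed to show the element in genes that rose, 5′ to 3′ on the strand of the gene, with the core in capitals. It begins 133 bases before the start in Prdx1, 92 before in Txnrd1 and 28 after in Srxn1.
Prdx1, chr4:116685349-116685648, + strand: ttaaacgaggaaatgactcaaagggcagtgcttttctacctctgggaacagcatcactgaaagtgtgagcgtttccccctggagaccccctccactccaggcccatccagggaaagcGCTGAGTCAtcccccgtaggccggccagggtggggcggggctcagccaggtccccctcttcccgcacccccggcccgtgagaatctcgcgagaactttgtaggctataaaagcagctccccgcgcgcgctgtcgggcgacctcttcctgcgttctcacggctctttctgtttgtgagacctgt
Txnrd1, chr10:82858956-82859255, + strand: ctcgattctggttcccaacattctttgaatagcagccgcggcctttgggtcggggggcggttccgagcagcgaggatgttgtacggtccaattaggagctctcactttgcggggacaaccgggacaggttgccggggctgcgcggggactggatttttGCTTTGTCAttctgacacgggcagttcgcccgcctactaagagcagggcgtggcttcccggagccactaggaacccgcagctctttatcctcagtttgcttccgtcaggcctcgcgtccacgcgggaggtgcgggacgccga
Srxn1, chr2:152105274-152105573, + strand: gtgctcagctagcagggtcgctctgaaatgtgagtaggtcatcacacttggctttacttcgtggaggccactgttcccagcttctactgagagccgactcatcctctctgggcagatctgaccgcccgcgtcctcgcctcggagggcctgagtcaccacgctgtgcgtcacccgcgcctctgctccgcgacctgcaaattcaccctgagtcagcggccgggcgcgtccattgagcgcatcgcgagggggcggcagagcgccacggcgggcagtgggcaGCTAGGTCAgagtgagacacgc
In all 3 windows the core is on the reverse strand, read as GCTGAGTCA in Prdx1, GCTTTGTCA in Txnrd1 and GCTAGGTCA in Srxn1. A match is a description of the sequence and not evidence of binding.

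Selenoprotein transcripts did not move as a group. Of 20, 7 rose, 1 fell and 12 were not called, and 3 of the 7 (Gpx1, Gpx2, Txnrd1) rose in both fits, with a median of 0.05. Gpx2, the glutathione peroxidase of epithelium and an NRF2 target, rose from 5.81, 4.09 and 4.16 CPM to 11.1, 20.8 and 11.1 CPM (1.61, SE 0.292, adjusted p = 0.00104). Gpx1, the peroxidase of the cytosol, rose from 75.7 ± 8.99 to 131 ± 43.4 CPM (0.80), and Txnrd1, the cytosolic thioredoxin reductase, from 86.0 ± 6.66 to 111 ± 0.458 CPM (0.37). Selenon, a selenoprotein of the endoplasmic reticulum, was the only one to fall, from 76.7 ± 12.2 to 49.2 ± 9.89 CPM (−0.64). The groups did not overlap for any of these 4.

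The other 4 rises depended on O2 replicate 1. Selenop, the plasma carrier of selenium that liver makes in quantity, was at 363, 331 and 345 CPM in RA and at 2750, 339.9 and 391 CPM in O2, and its log2 fold change of 1.74 became 0.10 (adjusted p = 0.592) without that library. The same held for Sephs2, which makes the selenium donor (1.53, and 0.19 without it), Txnrd2 (0.53, and 0.12) and Msrb1 (0.43). Gpx4, the peroxidase of membrane lipids, lay at 256, 220.2 and 256 CPM in RA and 264, 294 and 351 CPM in O2, and its 0.31 was not called with 6 libraries (adjusted p = 0.102) and was called without O2 replicate 1 (0.43, adjusted p = 0.0363).

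Targets of p53 rose. Of 31, 18 rose and 1 fell, with 17 and 1 of these in both fits, and the median was 0.70, and 0.69 without O2 replicate 1. The summed level was 1253, 1265 and 1275 CPM in RA and 1483, 2478 and 1726 CPM in O2, with O2 replicate 2 the highest. Cdkn1a, the p21 inhibitor of cyclin-dependent kinases (chr17:29309936-29319701), was at 35.3, 27.6 and 29.9 CPM in RA and 95, 221 and 97.3 CPM in O2 (2.16, SE 0.229, adjusted p = 5.26e-05). Bax, which permeabilises mitochondria in apoptosis, rose from 29.6 ± 1.02 to 61.2 ± 19.1 CPM (1.05), and Mgmt, which repairs alkylated DNA, from 3.51 ± 0.402 to 7.67 ± 1.82 CPM (1.13). O2 replicate 2 was the highest for these 3 as well, and all O2 libraries exceeded all RA libraries. O2 replicate 1 was the highest library for 2 of the 18 genes that rose, and Sesn1, a stress-induced sestrin, was the 1 that fell (−0.34). With the 6 libraries alone 10 rose.

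Of 40 genes of the cell cycle and DNA replication, 0 rose and 1 fell by edgeR's test. That gene was Foxm1, a transcription factor of mitotic genes, at 25.1, 46.7 and 40.4 CPM in RA and 28.1, 24.5 and 20.7 CPM in O2 (−0.61, adjusted p = 0.0305). RA replicate 1 lay among the O2 values, and the call was lost with the sex term (−0.37), without O2 replicate 3 (−0.47) and without RA replicate 2 (−0.45) or 3 (−0.59). The median of the list was −0.09, which was −0.28 without O2 replicate 1, 0.09 with a sex term and 0.16 without O2 replicate 3.

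Markers of differentiated epithelium varied by cell type. Of 21 alveolar type 2 markers, 3 rose (Hc, S100g and Ctsh) and 18 were not called, with a median of 0.08. The 3 are 14.3% of the list, beside 9.62% of all described genes, and rose in both fits, beside 3.66%. The summed markers were lowest in O2 replicate 1 (13204 CPM against 22886 and 31107 CPM in its group and 16575 to 22157 CPM in RA). Without that library 7 of the 21 rose, beside 6.42% of described genes, and the median was 0.35. The median was −0.17 without O2 replicate 3. S100g, a calcium-binding protein, was at 29.4, 21.5 and 19.2 CPM in RA and 28.6, 51.4 and 84.0 CPM in O2. Of 20 alveolar type 1 markers, 1 rose (Igfbp2, which was at 999 CPM in O2 replicate 1 and 136 to 151 CPM in its group's other libraries) and it was not called without that library, when 3 others rose. Of 13 airway markers, 0 were called by edgeR with all 6 libraries.

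Markers of injured and transitional epithelium rose. Of 13, 8 rose and 0 fell, 7 in both fits, with a median of 0.55, and 11 rose without O2 replicate 1 (median 0.72). Cdkn1a belongs to this list and to the p53 targets. Other lists also share members, such as Gclc, Ftl1, Notch3 and Pdgfra, so the list counts are not independent. Krt18, a keratin of simple epithelium that is raised in cells passing between alveolar types, was at 109, 89.9 and 85.4 CPM in RA and 233, 182 and 216 CPM in O2 (1.15, adjusted p = 0.000573). Lgals3, galectin 3, was at 102, 72.8 and 68.8 CPM in RA and 91.2, 169 and 268 CPM in O2 (1.12), so that O2 replicate 1 lay within the RA range. Clu, clusterin, was highest in O2 replicate 1 at 326 CPM, and rose by 1.61 with it and 0.88 without. The count was 5 without RA replicate 2 and 3 in the fit of the 6 libraries alone.

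**Figure D4:**
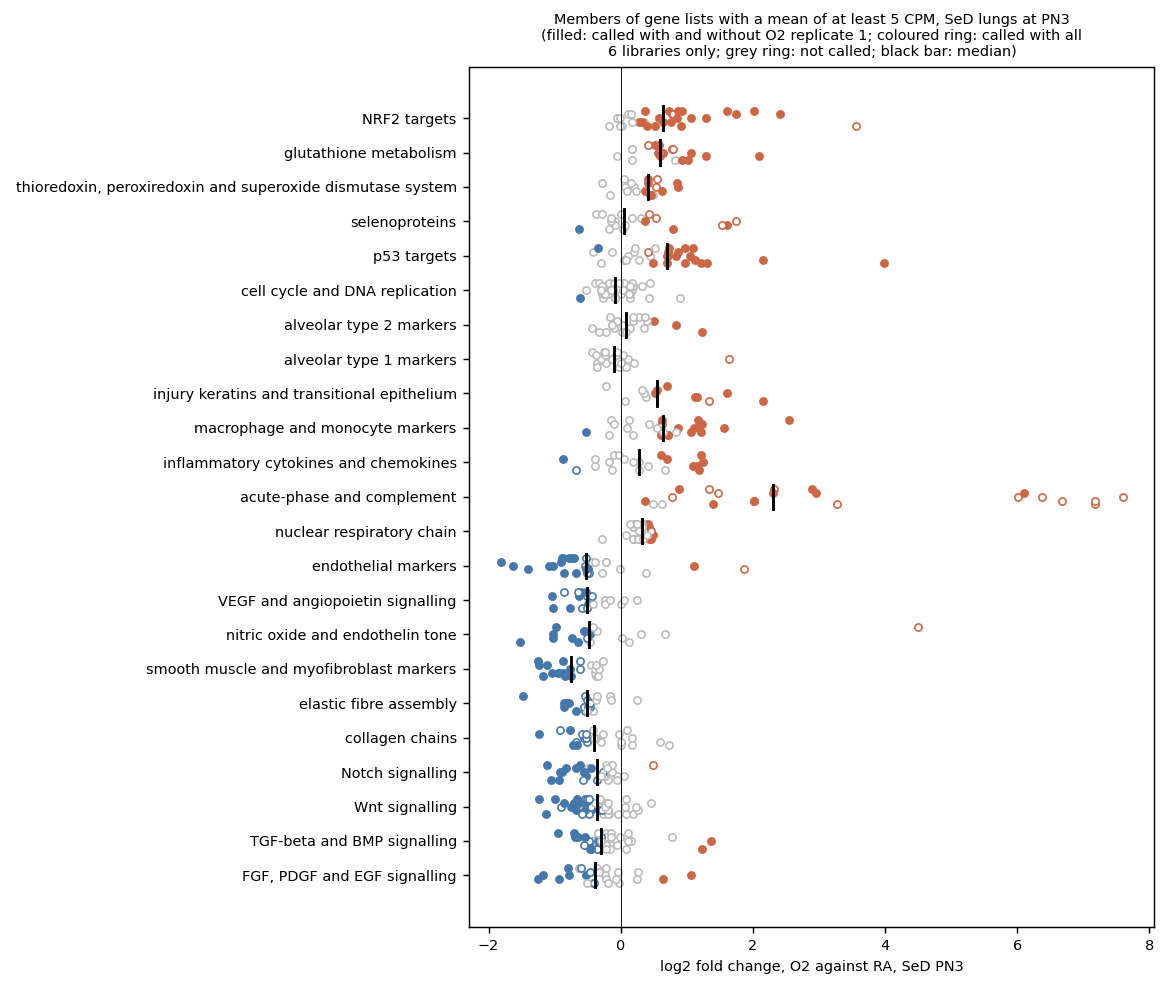
Log2 fold change of O2 against RA in SeD lungs at PN3 for the members of 23 gene lists with a mean of at least 5 CPM, 1 point per gene, with the median of each list as a black bar. Filled points were called with and without O2 replicate 1, coloured rings with all 6 libraries only, and grey rings were not called. Antioxidant, p53 and macrophage lists lie to the right of 0 and endothelial, smooth muscle, elastic fibre, collagen, Notch and Wnt lists to the left.

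Endothelial genes fell. Of 30 markers, 21 fell and 2 rose, 15 and 1 of them in both fits, and the median was −0.53 (−0.41 without O2 replicate 1). Sox17, a transcription factor of arterial identity, was at 51.8, 64.8 and 64.1 CPM in RA and 21, 30.7 and 33.4 CPM in O2 (−1.09, SE 0.152, adjusted p = 0.000229), and Tie1, an orphan receptor that modulates angiopoietin signals, fell from 222 ± 35.6 to 109 ± 11.9 CPM (−1.03). Cdh5, the cadherin of endothelial junctions, was at 787, 995 and 947 CPM in RA and 422, 623 and 431 CPM in O2 (−0.89, and −0.76 without O2 replicate 1). Pecam1 was at 613 CPM in O2 replicate 2, close to the 621 CPM of the lowest RA library, and its −0.53 was −0.30 (adjusted p = 0.155) without O2 replicate 1. The 2 that rose are used as markers of lymphatic vessels, and which cells gave the rise was not tested. Lyve1, the hyaluronan receptor, rose from 218 ± 6.77 to 469 ± 157 CPM (1.11) in both fits, and Prox1, which liver also expresses, only with O2 replicate 1. Fitted alone, the 6 libraries gave 12 falls.

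Of 20 genes of VEGF and angiopoietin signalling, 13 fell and 0 rose, 7 in both fits. Calcrl, the adrenomedullin receptor of endothelium, was at 1032, 929 and 964 CPM in RA and 361, 582 and 487 CPM in O2 (−1.03). Flt1, a VEGF receptor, fell by 0.77 on the log2 scale and Tek, the angiopoietin receptor TIE2, by 0.53, both in both fits. The ligand Vegfa had a log2 fold change of −0.24 and was not called.

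Of 18 genes of nitric oxide and endothelin tone, 9 fell and 1 rose, with 8 and 0 in both fits. Gucy1a1, the nitric oxide receptor of vascular smooth muscle, fell from 371, 432 and 438 CPM to 170.3, 228 and 209 CPM (−1.03, adjusted p = 0.000232), and Pde5a, the phosphodiesterase that ends its signal, from 692 ± 63 to 341 ± 85.9 CPM (−1.02). The groups were far apart for both. Ddah2, which removes an inhibitor of nitric oxide synthase, fell by 0.73 on the log2 scale.

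Smooth muscle, myofibroblast and elastic fibre genes fell as well. Of 22 smooth muscle and myofibroblast markers, 14 fell and 0 rose, 11 in both fits, and the median was −0.76 (−0.60 without O2 replicate 1). Pdgfra, the receptor that marks alveolar myofibroblast progenitors, was at 136, 178 and 198 CPM in RA and 60.6, 81.8 and 72.2 CPM in O2 (−1.25, SE 0.152, adjusted p = 9.48e-05), and Smtn, a protein of contractile smooth muscle, fell from 105 ± 16.3 to 54.7 ± 4.46 CPM (−0.95). Acta2, smooth muscle actin, was at 648, 729 and 828 CPM in RA and 331, 945 and 433 CPM in O2, with the highest of the 6 values in O2 replicate 2, and was not called (−0.37). Among the genes of FGF, PDGF and EGF signalling, 9 of 27 fell (33.3%) and 2 rose (7.41%). Those that fell include Fgfr1 (−0.93), Pdgfrb (−1.17) and Fgfr4 (−0.81).

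Of 20 genes of elastic fibre assembly, 13 fell (65%) and 0 rose, 6 (30%) in both fits. Ltbp2, which binds fibrillin and directs elastic fibre assembly, was at 172, 272 and 263 CPM in RA and 72.8, 94.7 and 87.0 CPM in O2 (−1.47, adjusted p = 0.000229), and Fbn1, fibrillin 1, fell from 685 ± 115 to 388 ± 105 CPM (−0.82). Of 24 collagen chains, 11 fell and 0 rose, 4 in both fits (16.7%, against 11.8% of all described genes). Col15a1, a collagen of vascular basement membrane, fell from 38.8 ± 8.43 to 16.4 ± 1.63 CPM (−1.24), and Col4a1 from 2946 ± 507 to 1727 ± 409 CPM (−0.77). O2 replicate 1 was the lowest library for 12 of the 13 elastic fibre genes and all 11 collagens that fell, and the collagen count was 4 without RA replicate 2.

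Notch receptors fell while their ligands were mixed. Of 27 genes of the pathway, 14 fell (51.9%) and 1 rose (3.7%), with 11 (40.7%) and 0 in both fits. All 4 receptors fell: Notch1 from 107, 131 and 122 CPM to 57.2, 66.4 and 65.6 CPM (−0.93, SE 0.113, adjusted p = 9.48e-05), Notch2 by 0.45, Notch3 by 1.11 and Notch4 by 1.06 on the log2 scale, each without overlap and in both fits. Of the ligands, Jag2 fell by 0.94, whereas Jag1 and Dll1 each had −0.13 and Dll4 −0.49, and these 3 were not called. Among the transcriptional targets, Hey1 fell from 44.3 ± 0.792 to 23.9 ± 5.03 CPM (−0.89), and Hes1 had 0.05 and was not called. Fitted alone, the 6 libraries gave 10 falls.

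Of 44 genes of Wnt signalling, 23 fell (52.3%) and 0 rose, 13 (29.5%) in both fits, with a median of −0.36 (−0.24 without O2 replicate 1). Wnt5a, a ligand made by septal mesenchyme, was at 64.7, 87.9 and 82.9 CPM in RA and 35, 49.2 and 46.1 CPM in O2 (−0.85, adjusted p = 0.000497). Wnt11 (−0.99), Wnt5b (−0.66), the receptor Fzd1 (−0.63) and the secreted inhibitor Wif1 (−0.72) fell in both fits without overlap. Axin2, the feedback target often read as canonical Wnt output, was at 39.9, 54.8 and 44.9 CPM in RA and 24.1, 35.6 and 31.6 CPM in O2, and its call (−0.61, adjusted p = 0.00641) was lost without O2 replicate 1 (−0.44, adjusted p = 0.0529). Fzd8 was not called (−0.27). Wnt6, which lay under 1 CPM in every library and is not among the 44, is given because the study names it, and its call (−1.37) was also lost without O2 replicate 1. From the 6 libraries alone 6 of the 44 fell.

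Of 41 genes of TGF-beta and BMP signalling, 15 fell (36.6%, beside 20.3% of all described genes) and 2 rose (4.88%, beside 9.62%). In both fits 8 fell (19.5%, beside 11.8%) and 2 rose. The 2 that rose were Inhba, the activin A subunit, from 5.90, 7.61 and 7.42 CPM to 23.4, 21.9 and 8.70 CPM (1.37), and Bmp7, from 4.70, 4.57 and 3.82 CPM to 6.78, 8.23 and 15.6 CPM (1.22). Bmp6 fell by 0.95 and Smad5, which carries BMP signals to the nucleus, by 0.48. With the 6 libraries alone 2 of the 41 fell, beside 758 of the 12636 described genes.

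Macrophage and monocyte markers rose. Of 25, 14 rose and 1 fell, with 13 and 1 in both fits (median 0.64, and 0.67 without O2 replicate 1). Marco, a scavenger receptor of alveolar macrophages, was at 21, 17.2 and 13.6 CPM in RA and 170.3, 46.2 and 86.1 CPM in O2 (2.55, SE 0.381, adjusted p = 0.00033), and C1qa and C1qc, chains of the complement recognition protein C1q, rose by 1.11 and 1.17. Adgre4, a receptor of resident and circulating myeloid cells, fell from 16.1 ± 1.75 to 11.2 ± 1.43 CPM (−0.53). With the 6 libraries alone 3 rose.

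Of 21 cytokines, chemokines and their receptors, 7 rose and 2 fell, with 7 and 1 in both fits. Ccl9, a chemokine of myeloid cells, rose from 22.9 ± 4.20 to 54.3 ± 14.5 CPM (1.24), and Cxcr4, the receptor of CXCL12, fell from 45.3 ± 1.80 to 24.7 ± 5.24 CPM (−0.87). Ptgs2, the inducible cyclooxygenase, was at 4.81 CPM in O2 replicate 1, within the RA range, and at 15.9 and 12 CPM in the others (1.22). The count of rises was 4 without O2 replicate 3 and 4 without RA replicate 2.

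Acute-phase and complement genes gave 20 rises among 22, of which 9 held in both fits, and the median of 2.31 became 0.76 without O2 replicate 1. Liver makes most of these proteins, and O2 replicate 1 was the highest library for 19 of the 20. Lbp, which presents bacterial lipopolysaccharide, was at 32, 26.2 and 26.6 CPM in RA and 254, 52.5 and 111 CPM in O2 (2.30, and 1.55 without O2 replicate 1). C1s1 (2.02, and 1.67) and C1ra (1.4, and 1.25), the proteases of the C1 complex, also rose in both fits, and all 3 O2 libraries lay above RA for these genes.

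Of 15 neutrophil and eosinophil markers, 12 rose, 5 in both fits. S100a8 and S100a9, the calprotectin subunits of neutrophils, rose by 1.49 and 1.33, with S100a8 at 40.5, 36.9 and 37 CPM in RA and 154, 47.3 and 119 CPM in O2. Mpo, the myeloperoxidase of granulocyte precursors, was at 146 CPM in O2 replicate 1 and at 0.538 to 2.37 CPM in the other 5 libraries.

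Metal-binding genes rose, with a large share from O2 replicate 1. Of 19 metallothionein, iron storage and iron transport genes, 14 rose and 1 fell, 6 and 0 of them in both fits. The rises numbered 6 with voom, 7 with the replicate number as a block and 2 in the fit of the 6 libraries alone. Mt1, which binds zinc and copper, was at 36.1, 29.2 and 29.6 CPM in RA and 404, 82.9 and 70.5 CPM in O2 (2.55, and 1.31 without that library). Of 43 nuclear genes of the respiratory chain, 18 rose and 0 fell, 9 in both fits, with log2 fold changes of 0.29 to 0.49 among the 18. Their count ran from 4 without RA replicate 2 and 7 without RA replicate 1 to 33 with DESeq2 and 32 with RLE size factors.

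The response was set beside that of SeS pups at PN3, a comparison that shares no library with the SeD one. In SeS lungs 507 described genes (4.01%) rose and 2451 (19.4%) fell. Of the genes that rose in SeD, 253 also rose in SeS, which is 2% of all described genes, 20.8% of the SeD and 49.9% of the SeS list. The SeD PN3 lists, here and beside PN1 below, are those of all 6 libraries. Of the 1215 genes that rose, 463 did so in both fits, and the overlap of those 463 was not counted. Of those that fell, 1585 (12.5%) also fell in SeS (61.9% and 64.7% of the lists), and 2 genes (0.0158%) were called in opposite directions. Eda2r (3.99 in SeD, 4.03 in SeS), Ntrk2 (−2.25, −2.53), Cdkn1a (2.16, 1.83) and Notch1 (−0.93, −0.86) were called in both diets.

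The SeS pups also showed 17 rises among the 31 NRF2 targets and 17 among the 31 p53 targets. Of the endothelial markers 13 of 30 fell and of the acute-phase genes 3 of 22 rose. The liver markers summed to 3421 CPM in SeS RA replicate 3, against 412 and 204 CPM in the other SeS RA libraries. In SeS O2 they summed to 205 to 284 CPM. Liver transcripts were thus highest in an RA library in SeS and in an O2 library in SeD. How far this moves the acute-phase genes, Lbp and Serpina3n between the diets was not tested. Of the cholesterol and fatty acid synthesis genes 14 of 29 fell in SeS and 4 in SeD.

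The difference between the diets in the O2 effect was tested as an interaction, and 0 genes passed by edgeR. At an unadjusted p under 0.05 there were 1991 of 23831 (8.35%), limma voom also called 0, and DESeq2 called 271. Without O2 replicate 1, 0 were called and 811 had an unadjusted p under 0.05, and the count was 319 without O2 replicate 3 and 309 without O2 replicate 2. The 5 genes with the smallest p, each at an adjusted p of 0.241, were Lbp, Adgre4, Jak3, Serpina3n and Glt8d2. Lbp was at 26.4 to 38.8 CPM in SeS RA and 32 to 33.7 CPM in SeS O2, against 52.5 to 254 CPM in SeD O2 (difference 2.24, SE 0.450). Glt8d2, a glycosyltransferase, fell by 0.92 in SeD and had 0.13 in SeS (difference −1.05, SE 0.230). None of these differences passed.

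Against SeD pups at PN1, again with no shared library, more genes were called at PN3. At PN1, 276 described genes (2.18%) rose and 211 (1.67%) fell. Of these, 114 also rose at PN3 (0.902% of described genes, 41.3% of the PN1 and 9.38% of the PN3 list) and 185 also fell (1.46%, 87.7% and 7.23%). The NRF2 targets gave 19 rises of 31 at PN1 against 22 at PN3, while the p53 targets gave 1 against 18 and the smooth muscle markers 2 falls against 14. Of the endothelial markers 7 fell at PN1 and 21 at PN3. Fewer members differed by the interaction of age with O2, which tests the difference itself. It called 3 p53 targets higher and 1 lower, and 6 smooth muscle and 6 endothelial markers lower. The median log2 fold change of the p53 targets was 0.34 at PN1 and 0.70 at PN3.

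The interaction of age with O2 in SeD pups gave 4227 genes (17.7%), of which 3504 (14.7%) were higher and 723 (3.03%) lower at PN3 than at PN1 in their response. Of the higher ones, 3458 had a mean under 5 CPM, and among the described genes 46 (0.364%) were higher and 620 (4.91%) lower. Olfactory and vomeronasal receptor transcripts, given above for PN3, summed at PN1 to 303, 672 and 30.7 CPM in RA. In O2 at PN1 they summed to 235, 231 and 142 CPM. At PN1 28504 to 37392 genes had a count in RA and 33502 to 33991 in O2. Whether the differences in low genes follow these library differences was not tested. The 5 genes with the smallest p were Hey1, 6330403K07Rik, Pdgfra, Cxcr4 and Cd79b. Hey1 was at 24.8 to 31.7 CPM in RA and 38.2 to 46.4 CPM in O2 at PN1, with O2 above RA, and at 43.7 to 45.2 CPM in RA and 18.2 to 27.7 CPM in O2 at PN3, with O2 below RA (difference −1.47, SE 0.226, adjusted p = 0.0077). Pdgfra did not separate by gas at PN1 (71.9 to 100.1 CPM in RA, 83.6 to 102 CPM in O2) and did at PN3 (difference −1.32, SE 0.212). Cdkn1a went the other way, from 0.75 at PN1 to 2.16 at PN3 (difference 1.41, SE 0.312, adjusted p = 0.0084).

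Gpx2 rose at both ages, by 2.80 at PN1 and 1.61 at PN3, a difference of −1.19 (adjusted p = 0.048). These differences rest on the spread estimated from all 24 libraries. When the 12 SeD libraries were fitted alone 0 genes passed, while over all libraries 3075 passed without O2 replicate 1 of PN3 and 1157 passed without RA replicate 2 of PN1. In O2 replicates 1 and 2 of PN1, Alb was at 3932 and 2614 CPM.

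**Figure D5:**
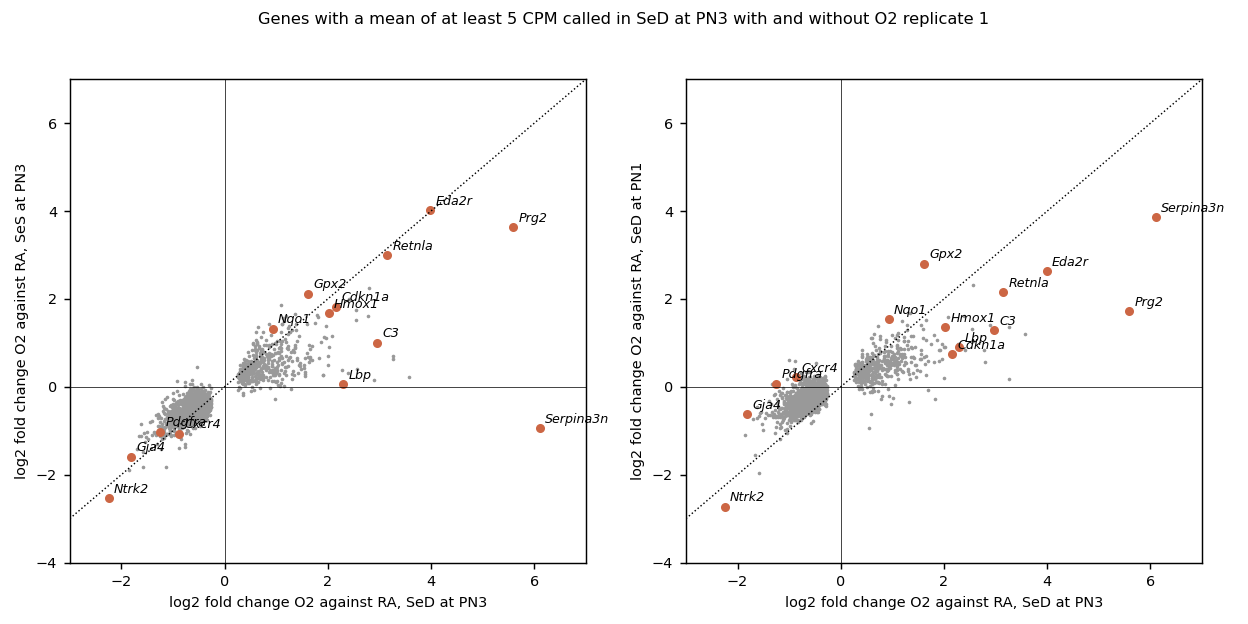
Log2 fold change of O2 against RA in SeD lungs at PN3 (horizontal axis) against that in SeS lungs at PN3 (left, vertical axis) and in SeD lungs at PN1 (right, vertical axis), 1 point per gene among the 1950 called in both fits, with the dotted line marking equal values. Eda2r, Retnla and Ntrk2 lie near the line on the left, Serpina3n and Lbp lie near or below 0 for SeS, and Pdgfra and Cxcr4 lie near 0 for PN1.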

How the data were processed

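Stranded poly(A) libraries of newborn lung were sequenced, and the authors trimmed, aligned (HISAT2, mouse build GRCm39) and counted reads per gene with featureCounts. The strand setting and annotation release are not given in the sources used here. The deposited counts of all 24 libraries were used as they stand, and 0 columns lacked a sample. A deposited normalized sheet and the sheets of fold changes and p-values from the authors' own comparisons were not used.

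Low genes were removed by filterByExpr (10 counts, 15 in total), libraries were scaled by TMM, and counts were fitted as 8 group means over the 24 libraries with edgeR 4.0.16 (R 4.3.3, prior count 0.125). SeS O2 PN1 replicate 2, labelled with an FiO2 of 0.21 against its hyperoxia title, was grouped by its title and bears on SeD at PN3 through the shared filter, scaling and spread. Without it 8804 genes were called in SeD at PN3 against 8600. The quasi-likelihood test was Benjamini-Hochberg adjusted, with calls below 0.05 and beyond 0.25 on the log2 scale. SE was the log2 fold change over the root of F. The script was tested on simulated data with 200 changed genes. Those data held no library rich in liver transcripts, so they cannot show how O2 replicate 1 affects the calls. Alternatives were DESeq2 1.42.0, limma 3.58.1 voom with quality weights, other scalings, filters, libraries and fold thresholds, a replicate block, a sex term, and leaving out each library.

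Genes named were the 12 highest and 12 lowest protein-coding genes called in both fits without overlap, the 6 highest called only with O2 replicate 1, up to 4 members of each list by smallest p, 16 genes the study names, 5 genes per interaction and the defining markers. Gclm, Sephs2, Txnrd2, Msrb1, Sesn1, Lyve1, Prox1, Vegfa, Dll4 and Hes1 were added after their values were seen. The members and gene lists were chosen with earlier results of these data known. Gene coordinates are GRCm39. A gene selected by the rule is not reported here.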

Additional observations from a re-analysis of the deposited data

Results flagged for a closer look

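The response to O2 in SeD lungs differed between PN3 and PN1 for 4227 genes by edgeR's interaction test over the 24 libraries. When fitted on the 12 SeD libraries alone, 0 genes passed, so each difference below rests on the spread estimated with the SeS libraries included. Each value is the log2 fold change at PN3 minus that at PN1.

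Among the genes that rose at PN3, the difference was 3.86 for Prg2, 3.08 for Kynu, 2.23 for Ces2e, 1.41 for Cdkn1a, 1.39 for Lbp, 1.02 for Gpx1 and 0.661 for Bax, while Gpx2 had −1.19. Kynu was at 39.2 CPM in O2 replicate 1 and at 2.25 and 3.72 CPM in the other O2 libraries of PN3. Among B cell genes the difference was 1.74 for Cd79a, 1.68 for Ighm, 1.48 for Ms4a1 and 1.21 for Cd79b. At PN3 Cd79a (0.80) and Ighm (0.79) were not called. Of the 7 described lymphocyte and thymus markers, 2 rose at PN3 (median 0.55) and 2 fell at PN1 (median −0.93), so these differences are not a rise at PN3 alone.

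Among endothelial and vascular genes it was −1.2 for Gja4, −0.921 for Aplnr, −0.963 for Tspan18, −0.69 for Ace, −0.821 for Calcrl, −0.705 for Tek, −0.695 for Gucy1a1 and −0.67 for Pde5a. Mesenchymal and signalling genes had −1.32 (Pdgfra), −0.679 (Smtn), −0.971 (Wif1), −1.47 (Hey1) and −1.09 (Cxcr4). The remaining genes had −0.965 (Scube1), −1.16 (Galnt16), −0.814 (Glt8d2) and −1.4 (6330403K07Rik).

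The heart genes Myl7 (−2.45) and Nppa (−7.69) also differed, and single libraries stood out for them. O2 replicate 1 of PN1 held 257 CPM of Nppa and 282 CPM of Myl7, against at most 35.6 and 105 CPM in the other SeD libraries of that age, and RA replicate 3 of PN3 held 81.4 CPM of Nppa against at most 2.18 CPM of Nppa in the others of PN3.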

How the results depend on the processing

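With only the 6 SeD PN3 libraries fitted, 2960 genes were called, and 169 described genes were higher and 758 lower. A log2 threshold of 1 gave 5155, 586 and 115. Leaving out 1 library gave 6043 to 9624 genes, with 701 to 1545 described genes higher and 1667 to 3057 lower. The lowest values came without RA replicate 2 (701) and O2 replicate 1 (1667).

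Of 142 named genes, 129 kept their side of the threshold without O2 replicate 1, 10 lost it, 1 gained it, and Gm8893 (−0.47) and Lect2 (−0.0557) reversed, the highest with 1 library left out being 9.45 and 8.76. In the fit of the 6 libraries 88 of 138 kept it, and the genes that fell were 6 of the smooth muscle, 4 of the elastic fibre, 2 of the collagen, 4 of the VEGF and 6 of the nitric oxide lists, while 5 acute-phase and 1 neutrophil gene rose. The cause of these differences was not tested.

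For SeS at PN3, voom called 9966 genes, a threshold of 1 gave 3435, and leaving out 1 library gave 3843 to 5658. The diet interaction gave 271 with DESeq2 and 0 to 319 with 1 library left out. The age interaction gave 0 on its own or the 12 SeD libraries and 1157 to 6277 with 1 library left out (2614 without RA replicate 2 of PN3). For SeD at PN1, DESeq2 called 2325 genes, voom 3592, RLE factors 1259, no filter 912, its own libraries 91, the 12 libraries 2060, a sex term 281 and a threshold of 1 called 103, with 117 to 755 when 1 library was left out.

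With the replicate number as a block, 672 described genes were higher in SeD at PN3, 94 genes were called at PN1 and 244 in the age interaction. Same-numbered libraries of the SeD PN3 groups correlated at 0.32, 0.46 and −0.40 over 2000 genes, so the numbers were not treated as pairs.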

Other observations

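Of 15 genes of retinoic acid metabolism and its receptors, 3 fell (20%) and 1 rose (6.67%) in SeD lungs at PN3, beside 20.3% and 9.62% of all described genes, with a median log2 fold change of 0.10. Among the receptors, Rarg was at 66.2, 73 and 69.9 CPM in RA and 36, 48.3 and 51.2 CPM in O2 (log2 fold change −0.63), and Rara fell by 0.55 on the log2 scale. Of 12 hedgehog genes 6 fell and 0 rose by edgeR, 2 of them (Sufu, −0.58, and Smo, −0.51) in both fits. In the insulin-like growth factor system, the binding protein Igfbp3 rose from 21.8, 24.3 and 31.1 CPM to 69.9, 36.7 and 81.3 CPM (1.28), while the receptor Igf1r (−0.60) and the adaptor Irs1 (−0.56) fell.

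Of 22 interferon-stimulated genes 1 rose (Ifit3, by 0.73 on the log2 scale) and 0 fell by edgeR, and the median was 0.06 (−0.06 without O2 replicate 1). Of 26 matrix remodelling genes 6 rose and 7 fell (median 0.04), and 8 rose and 2 fell without O2 replicate 1 (median 0.24). Timp1, an inhibitor of metalloproteinases, was at 9.63, 7.48 and 7.70 CPM in RA and 12.1, 27.5 and 35.3 CPM in O2 (1.59), and every O2 library lay above every RA library. Fgf10, the ligand that mesenchyme sends to distal epithelium, fell by 0.79 on the log2 scale. In mast cell and basophil markers, Gata2 (−0.72) and Hdc (−0.60) fell and Cpa3 rose (0.74), and Cpa3 overlapped between the groups.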
